A study of Mus musculus with 4 samples.

Results

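The 42 mitosis and spindle genes described here code for proteins that carry a cell from the end of DNA replication through chromosome segregation and cell division. They were chosen by name, with earlier results of these data known. Each of the 42 symbols matched 1 row of the 34745 genes in the deposited table. RNA sequencing covered 4 libraries of naive CD4+ T cells from spleens of C57BL/6 mice, cultured for 3 days under conditions that polarise them towards regulatory T (Treg) cells. Wild-type libraries carry the numbers 13 and 15. The libraries numbered 22 and 24 have the genotype Setd2-CD4 cre, in which a Cre recombinase driven by the CD4 promoter acts in T cells and Setd2 encodes a histone H3 lysine 36 methyltransferase. All 4 libraries share tissue, strain, culture time and polarising condition. Separate animals are not named in the labels, and the p-values below therefore reflect only how far the libraries of a group differed, a spread that may be technical.

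Mitosis begins when cyclin-dependent kinase 1, bound to cyclin A or B, is freed of inhibitory phosphate by CDC25 phosphatases. Aurora and Polo-like kinases and motor proteins of the kinesin family then build the spindle, and kinetochores tie each centromere to microtubules. A checkpoint holds the anaphase-promoting complex, the ubiquitin ligase that ends mitosis by marking securin and cyclin B for destruction, until every chromosome is attached. In cultures of activated T cells, which divide quickly, these transcripts are abundant and their summed level follows the share of cells in the G2 and M phases as well as the transcript content of each cell. In bulk RNA, fewer cells in these phases and less RNA per cell cannot be told apart.

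Library totals ran from 14599957 to 16030869 counts, and the 42 genes together took 1.25% to 1.45% of them. Setd2 itself measured 137 and 146 CPM (counts scaled to library size by trimmed means) in wild type 13 and 15 and 137 and 113 CPM in libraries 22 and 24 (log2 fold change -0.17, SE 0.14, adjusted p = 0.436 with edgeR). The values overlapped. Counts over the whole gene include exons that a deletion may leave in place, and the second group is called knockout-labelled here. Foxp3, which defines Treg cells, measured 242 and 247 CPM in wild type against 31.9 and 75.8 CPM. The 9 defining genes of CD4 T cells summed to 3807 and 3609 CPM in the wild type and 3892 and 3814 CPM in the knockout-labelled libraries, and none of them passed the threshold. Markers of gamma-delta T cells summed to 20.04 and 20.06 CPM in the wild type and to 41.4 and 62.3 CPM in the knockout-labelled libraries, with 3 of 5 higher. B cell markers summed to 225 and 228 CPM against 290.2 and 339 CPM, with 1 of 7 higher (Igkc). Ighm made up 207 to 308 CPM of these sums, and each of the other 6 was above both wild-type libraries in both knockout-labelled libraries, by 1.73-fold (Cd79b) to 2.94-fold (Igkc). Summed CD8 markers were between 78.5 and 183 CPM and myeloid markers between 30.2 and 35 CPM. Natural killer markers summed to 9.19 and 7.45 CPM in the wild type against 15.2 and 10.2 CPM in the knockout-labelled libraries. None of the genes tested in the CD8, myeloid and natural killer lists passed the threshold, and Ncr1, Klra8, Adgre1 and S100a8 were too low to be tested. In the myeloid list S100a9 measured 1.04 and 0.268 CPM in the wild type against 1.94 and 4.085 CPM. Lyz2, in the same list, measured 8.15 and 14.5 CPM against 5.62 and 8.62 CPM. Summed erythroid and platelet markers were between 1.88 and 2.76 CPM. Stromal and endothelial markers summed to 44.8 and 43.0 CPM in the wild type against 66.3 and 57.45 CPM in the knockout-labelled libraries. Nearly all of it was Pecam1 (adjusted p = 0.0592 with edgeR). No marker of any of these lists was at 0 in all 4 libraries. The part of these cells in the results below was not tested.

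The mitosis and spindle genes did not move as a block. All 42 passed the filter on low counts. By the quasi-likelihood test of edgeR, with p adjusted by Benjamini-Hochberg over 13279 genes, 7 of the 42 rose and 2 fell in the knockout-labelled libraries. The other 33 did not pass the threshold of 0.05. Over all genes tested, 5.53% were higher and 4.59% lower, 10.1% in all, against 21.4% of the 42. At an unadjusted p under 0.05 by the same test were 42.9% of the 42 and 31.6% of all genes. The genes that rose were the phosphatases Cdc25b and Cdc25c, the anaphase-promoting complex partners Cdc20 and Ube2c, securin (Pttg1), the centromeric histone Cenpa and the cleavage furrow protein Anln. Those that fell were the transcription factor Foxm1 and the proliferation marker Mki67. The median log2 fold change of the 42 was 0.05, from -0.87 (Spc24) to 0.76 (Cdc25c), where the median over all genes was -0.0013. The values of the 2 groups did not overlap for 30 of the 42 (18 higher and 12 lower), which is 71.4% against 63.8% over all genes. No member differed by a fold of 2 or more.

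**Figure D1:**
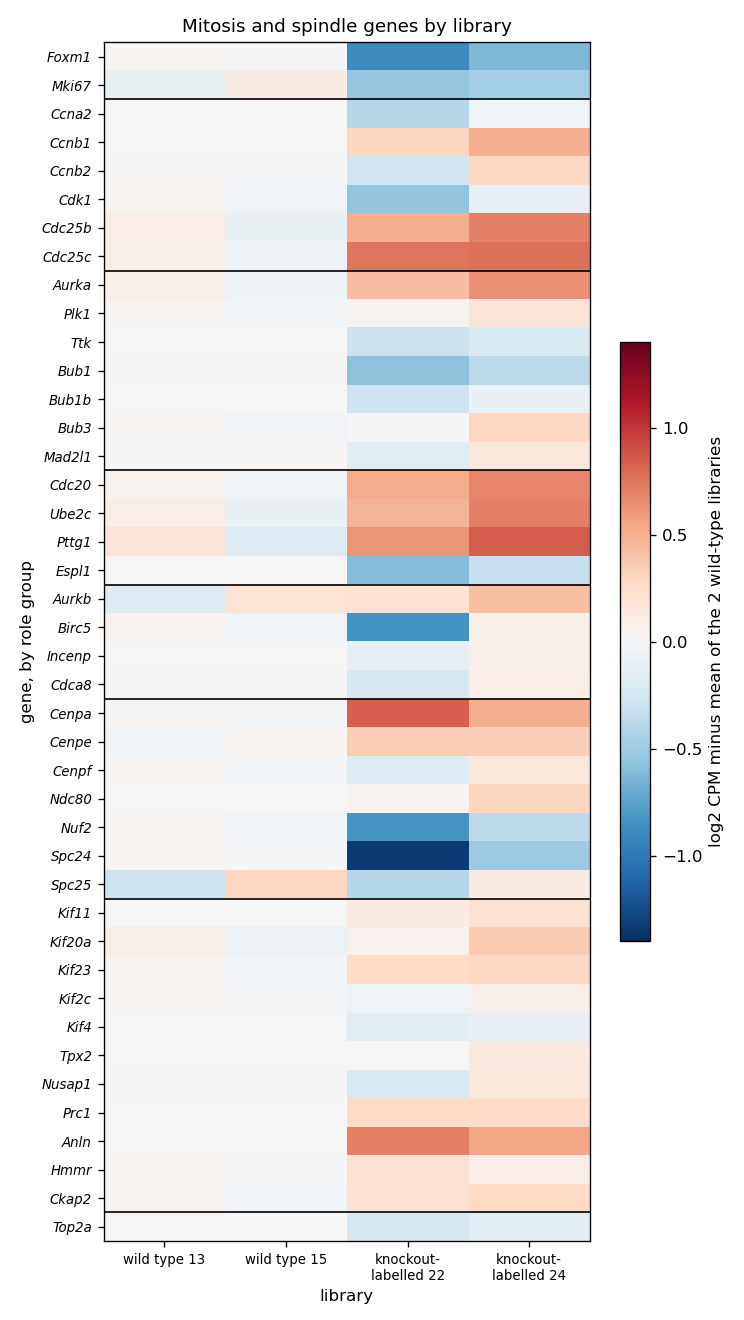
Log2 CPM of the 42 genes (rows, by role group) in the 4 libraries (columns), each minus the mean of the 2 wild-type libraries; red is higher and blue lower. Wild-type columns are pale, while the knockout-labelled columns hold rows such as Cdc25c (red in both) and Foxm1 (blue in both), and the darkest cell is Spc24 in knockout-labelled 22.

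None of the calls among the 42 was kept with 1 wild-type library. In such a fit that library is assumed to vary like the knockout-labelled pair, which alone gives the spread. By the median of the 42 this pair lies wider apart than the wild-type pair. For Mki67, Cdc25c and Pttg1 the wild-type pair lies wider apart, and why the calls were lost was not tested. Leaving out wild type 13 left 0 of the 42 past the threshold with edgeR (11 at an unadjusted p under 0.05), with 192 higher and 129 lower over all genes. Leaving out wild type 15 also left 0 (8 at an unadjusted p under 0.05), with 120 higher and 70 lower over all genes. No other tool was run on 3 libraries. The log2 fold changes themselves kept their sign for all 9 genes under each of the 16 alternatives tried. With left-out libraries this was given by the values, since the groups did not overlap for any of the 9. The robust fit, the minimum fold and the stricter threshold use the same fold changes as the main fit. With wild type 13 or 15 left out, the log2 fold change of Foxm1 was -0.73 or -0.79, and that of Anln 0.63 or 0.61. With all 4 libraries the same 9 genes were called by limma-voom, and DESeq2 called 8 higher and 5 lower. With limma on log2(FPKM + 1), only Cdc25c, Anln and Foxm1 passed, and the adjusted p of the other 6 was 0.0504 (Cenpa) to 0.076 (Ube2c and Pttg1). With upper-quartile scaling, Cdc25b (0.0521), Ube2c (0.0588) and Pttg1 (0.0564) missed the threshold.

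Foxm1 and Mki67 fell. Foxm1, the forkhead factor that drives transcription of many G2 and M phase genes (ENSMUSG00000001517, chromosome 6, 128362967 to 128376146, plus strand, GRCm38), measured 253 and 242 CPM in wild type 13 and 15. In knockout-labelled 22 and 24 it measured 134 and 161 CPM. Both knockout-labelled values lay below both wild-type values, with means of 248 ± 7.72 and 147 ± 19.1 CPM (SD, n = 2 each). This was a 1.68-fold fall (log2 fold change -0.75, SE 0.14, adjusted p = 0.0265). Mki67, the nuclear protein Ki-67 that coats mitotic chromosomes and marks cycling cells (ENSMUSG00000031004, chromosome 7, 135689788 to 135716379, minus strand), measured 1829 and 2126 CPM in the wild type and 1354 and 1414 CPM in the knockout-labelled libraries. Its fall was 1.43-fold (log2 fold change -0.51, SE 0.11, adjusted p = 0.0408). With wild type 13 or 15 left out, the adjusted p of Foxm1 was 0.1435 or 0.1485, and that of Mki67 was 0.1035 or 0.326. With knockout-labelled 22 left out, Mki67 was at 0.0519. The share of cells in each phase was not measured here.

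Among the genes that set off mitosis, both CDC25 phosphatases rose while none of the cyclins or Cdk1 passed the threshold, where 10.1% of all genes passed. Cdc25c, which removes the inhibitory phosphates from Cdk1 (chromosome 18), had the largest rise of the 42 with all libraries. Without wild type 13 that of Pttg1 was larger (0.91 against 0.83 on the log2 scale), and without library 24 that of Cenpa (0.83 against 0.74). It measured 55.7 and 49.8 CPM in the wild type and 88.3 and 90.3 CPM in the knockout-labelled libraries, a 1.69-fold rise (log2 fold change 0.76, SE 0.13, adjusted p = 0.025). Cdc25b, which acts on the same kinase earlier, at the centrosome (ENSMUSG00000027330, chromosome 2, 131186949 to 131198497, plus strand), measured 342 and 301 CPM in the wild type. In the knockout-labelled libraries it measured 455 and 522 CPM, a 1.52-fold rise (log2 fold change 0.60, SE 0.13, adjusted p = 0.0377). For both genes each knockout-labelled library lay above each wild-type library. With wild type 13 or 15 left out, the adjusted p of Cdc25c was 0.123 or 0.243, and that of Cdc25b was 0.143 or 0.329.

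Their substrate and its partners gave mixed values. Cdk1 measured 179 and 169 CPM in the wild type and 118 and 161 CPM in the knockout-labelled libraries (log2 fold change -0.32, SE 0.17, adjusted p = 0.247). Its log2 fold change was -0.10 without library 22 and -0.56 without library 24. Ccna2 (cyclin A2), the partner of Cdk1 at the entry into mitosis, measured 541 and 547 CPM against 412 and 522 CPM (adjusted p = 0.318). Ccnb1 (cyclin B1), the main mitotic cyclin, measured 102 and 103 CPM against 126 and 146 CPM, 0.41 on the log2 scale (SE 0.13, adjusted p = 0.0931). Ccnb2 (cyclin B2) overlapped between the groups, with 195 and 191 CPM in the wild type and 159.5 and 236 CPM in libraries 22 and 24. The sign of its log2 fold change, 0.04, was negative when libraries were scaled by their totals and with limma on FPKM.

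Of the 4 genes for partners of the anaphase-promoting complex, securin and separase, Cdc20, Ube2c and Pttg1 rose and Espl1 did not pass, where 5.53% of all genes were higher. Cdc20, the activator that brings substrates to the complex at metaphase (ENSMUSG00000006398, chromosome 4, 118432901 to 118437352, minus strand), measured 243 and 226 CPM in the wild type and 336 and 377 CPM in the knockout-labelled libraries. Its rise was 1.52-fold, from a mean of 235 ± 12.1 to 356 ± 29.3 CPM (SD, n = 2 each). Its log2 fold change was 0.60, with an SE of 0.12 (adjusted p = 0.0325). Ube2c, the ubiquitin-conjugating enzyme that starts chains on the substrates (ENSMUSG00000001403, chromosome 2, 164769898 to 164778822, plus strand), measured 334 and 293 CPM in the wild type and 435 and 509 CPM in the knockout-labelled libraries. It rose 1.504-fold (log2 fold change 0.59, SE 0.13, adjusted p = 0.0421).

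Pttg1, securin, is the inhibitor of separase that the complex destroys at anaphase (ENSMUSG00000020415, chromosome 11, 43420250 to 43426251, minus strand). It measured 52.3 and 40.9 CPM in the wild type and 71.3 and 83.7 CPM in the knockout-labelled libraries, a 1.66-fold rise (log2 fold change 0.73, SE 0.17, adjusted p = 0.044). Separase itself, Espl1, the protease that cuts cohesin, went the other way without passing the threshold, with 237 and 236 CPM in the wild type and 155 and 189 CPM in the knockout-labelled libraries (log2 fold change -0.46, SE 0.14, adjusted p = 0.0751). The libraries of the 2 genotypes did not overlap in any of these 4 genes, as in 63.8% of all genes. Without wild type 13 the adjusted p of Cdc20, Ube2c and Pttg1 was 0.178, 0.154 and 0.0916, and without wild type 15 it was 0.311, 0.354 and 0.34. Ube2c and Pttg1 also missed the threshold with scaling by library totals (0.0564 and 0.0536), and Cdc20 with limma on log2(FPKM + 1) (0.0573).

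**Figure D2:**
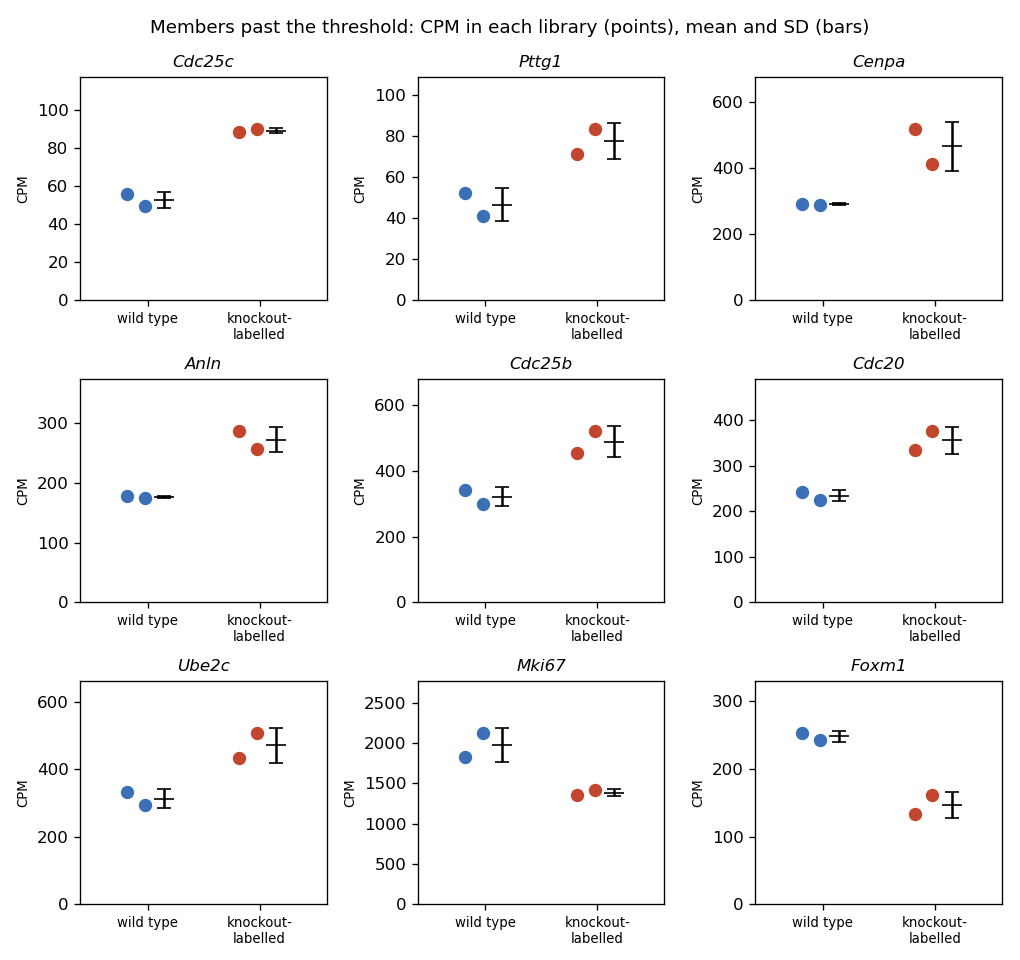
CPM (vertical axes, from 0) of the 9 genes past the threshold in the 2 wild-type (blue) and 2 knockout-labelled libraries (red), with the mean and SD of each pair as black bars. In each of the 9 panels both points of one group lie above both points of the other; Cenpa and Anln are higher in library 22 (left red point) than in 24, and the other 7 are higher in library 24.

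Of the 7 mitotic kinases and spindle checkpoint genes, none passed the threshold, where 10.1% of all genes did. At an unadjusted p under 0.05 with edgeR were 2 of the 7, against 31.6% of all genes. Aurka, the centrosomal Aurora kinase that matures spindle poles, came closest, with 129.9 and 118 CPM in the wild type and 167 and 192 CPM in the knockout-labelled libraries (log2 fold change 0.54, SE 0.13, adjusted p = 0.0524). It passed with DESeq2 (adjusted p = 0.0139), with a robust edgeR fit (0.0474) and with a filter of 1 count in total (0.0255). Bub1, a kinase that recruits the checkpoint to kinetochores, measured 226 and 231 CPM against 153 and 176 CPM (log2 fold change -0.48, SE 0.12, adjusted p = 0.0575), and passed with DESeq2 (0.0296), library totals (0.0486) and the filter of 1 count (0.0378). Each was non-overlapping between the groups, in opposite directions. Ttk (the kinase Mps1), at 83.2 and 83.5 CPM against 67.6 and 72.1 CPM, and Bub1b (BubR1), at 381 and 384 CPM against 313 and 357 CPM, were below wild type in both knockout-labelled libraries without passing (adjusted p = 0.217 and 0.308). Plk1, the Polo-like kinase of mitotic entry and exit, stood at 144 and 137 CPM in the wild type against 144 and 158.5 CPM, 0.11 higher on the log2 scale (SE 0.12, adjusted p = 0.588). The checkpoint proteins Mad2l1 and Bub3 overlapped between the groups, with log2 fold changes of 0.0024 and 0.15.

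The chromosomal passenger complex, which corrects faulty attachments, gave 0 of 4 members past the threshold with edgeR, where 10.1% of all genes passed. At an unadjusted p under 0.05 were 0 of the 4 (31.6% of all genes), and DESeq2 also called 0 of these 4. The kinase of the complex, Aurkb, measured 106 and 137 CPM in the wild type and 139 and 161 CPM in the knockout-labelled libraries (log2 fold change 0.30, SE 0.17, adjusted p = 0.258). Its log2 fold change was 0.12 or 0.50 with wild type 13 or 15 left out. The scaffold Incenp measured 339 CPM in both wild-type libraries and 312 and 356 CPM in libraries 22 and 24, and Cdca8 (borealin) 233 and 229 CPM against 196 and 246 CPM. Birc5 (survivin) set the knockout-labelled libraries apart from each other, with 280.1 and 259.9 CPM in wild type, 151 CPM in library 22 and 282 CPM in library 24. Its log2 fold change was -0.84 without library 24 (adjusted p = 0.00507) and 0.07 without library 22.

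Centromere and kinetochore genes split. Cenpa, the histone H3 variant that marks the centromere (ENSMUSG00000029177, chromosome 5, 30666777 to 30674830, plus strand), rose 1.605-fold. It measured 292 and 288 CPM in the wild type and 518 and 413 CPM in the knockout-labelled libraries (log2 fold change 0.68, SE 0.14, adjusted p = 0.0338; 0.161 or 0.22 with wild type 13 or 15 left out). Cenpe, the kinesin that carries chromosomes to the spindle equator, measured 350.1 and 369 CPM against 461.5 and 457 CPM (log2 fold change 0.35, SE 0.11, adjusted p = 0.0795). Cenpf, a large protein of the outer kinetochore, overlapped between the groups (log2 fold change -0.0035).

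The 4 subunits of the NDC80 complex, the rod that grips microtubules, did not share a direction. Spc24 had the lowest fold change of the 42 with all libraries, though not without library 22, where Foxm1 was lower (-0.61). It measured 68.8 and 66.3 CPM in the wild type and 26.6 and 47.4 CPM in the knockout-labelled libraries (log2 fold change -0.87, SE 0.26, adjusted p = 0.076). Nuf2 measured 156 and 148 CPM against 85.5 and 118 CPM (log2 fold change -0.58, SE 0.18, adjusted p = 0.0795). Both passed with DESeq2 (adjusted p = 0.0153 and 0.035), with a filter of 1 count in total (0.0145 and 0.0344) and without library 24 (log2 fold changes of -1.35 and -0.83). Without library 22 the log2 fold changes were -0.50 for Spc24 (adjusted p = 0.0404) and -0.35 for Nuf2 (0.0534). Ndc80 measured 148 and 146 CPM in the wild type and 151 and 181 CPM in the knockout-labelled libraries (log2 fold change 0.17, SE 0.14, adjusted p = 0.413; 0.31 and 0.03 on the log2 scale without library 22 or 24), and Spc25 97.2 and 145.6 CPM against 90.4 and 129 CPM (adjusted p = 0.711). On the length-scaled FPKM of the authors, the ratio of Spc24 to Ndc80 was 0.76 and 0.739 in wild type and 0.288 and 0.427 in the knockout-labelled libraries. The ratio of Nuf2 to Ndc80 was 0.303 and 0.29 in wild type and 0.163 and 0.187 in the knockout-labelled libraries. That of Spc25 to Ndc80 overlapped between the groups, with 0.276 and 0.417 in wild type against 0.251 and 0.298. These ratios are descriptions, since 2 against 2 libraries cannot give an exact p below 0.333.

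Of the 11 kinesins, spindle assembly and cytokinesis genes, Anln rose and 10 did not pass, which is 9.09% called against 10.1% of all genes. Anln codes for anillin, which ties the actin ring to the membrane at the cleavage furrow (ENSMUSG00000036777, chromosome 9, 22331214 to 22389206, minus strand). It measured 177.5 and 175 CPM in the wild type and 287 and 257 CPM in the knockout-labelled libraries, a 1.54-fold rise (log2 fold change 0.62, SE 0.12, adjusted p = 0.0299; 0.203 or 0.272 with wild type 13 or 15 left out). In this group 9 of 11 log2 fold changes were above 0 (median 0.17), against 6627 of 13279 over all genes (median -0.0013). Kif23, the motor of the central spindle, measured 228 and 218 CPM in the wild type and 271 and 273 CPM in the knockout-labelled libraries (log2 fold change 0.29, SE 0.11, adjusted p = 0.135). Prc1, which bundles microtubules at the spindle midzone, measured 239 and 240.5 CPM against 292 and 289 CPM (log2 fold change 0.28, SE 0.11, adjusted p = 0.139). Ckap2, which stabilises spindle microtubules, measured 149 and 141 CPM against 168 and 176 CPM (log2 fold change 0.25, SE 0.12, adjusted p = 0.203).

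Kif11, the motor that pushes spindle poles apart, measured 774 and 767 CPM in the wild type and 835.5 and 894 CPM in the knockout-labelled libraries (log2 fold change 0.17, SE 0.10). Hmmr, a spindle pole protein, also lay above wild type in both knockout-labelled libraries (log2 fold change 0.16), while the chromosome-bound motor Kif4 lay below (-0.14). The cytokinesis motor Kif20a, the microtubule-depolymerising motor Kif2c, the spindle assembly factor Tpx2 and the microtubule binder Nusap1 overlapped between the groups, with log2 fold changes of 0.22, 0.0022, 0.06 and -0.02. Top2a, the topoisomerase that untangles sister chromatids, measured 2286 and 2317 CPM in the wild type and 1954 and 2074 CPM in the knockout-labelled libraries (log2 fold change -0.19, SE 0.098, adjusted p = 0.228). None of these genes passed the threshold.

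**Figure D3:**
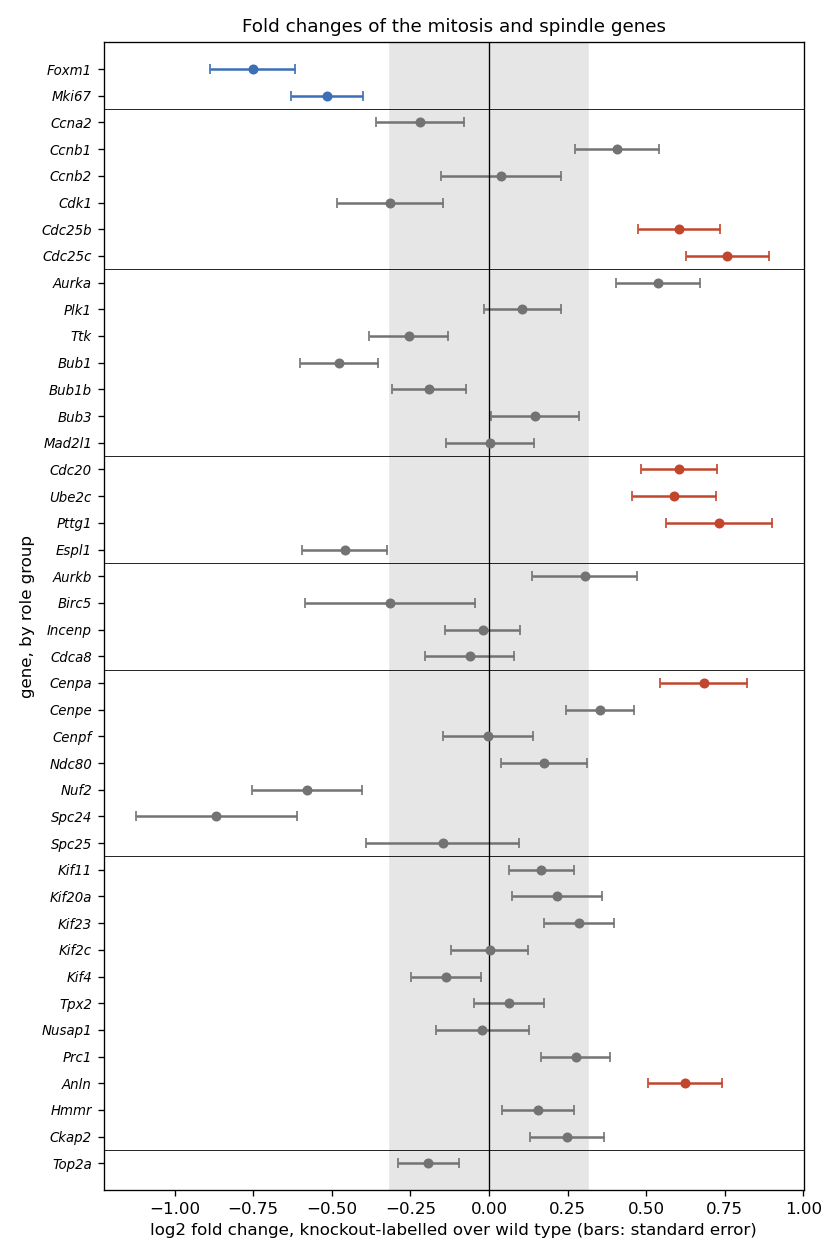
Log2 fold change of each of the 42 genes, knockout-labelled over wild type (horizontal axis), with its standard error, by role group (boxes of rows); red and blue points passed the threshold and the grey band holds the middle 50% of all genes, from -0.31 to 0.32. The 7 red points lie between 0.59 and 0.76, the blue points are Foxm1 and Mki67, and Spc24 at -0.87 has one of the widest bars.

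Per length, the most abundant of the 42 in wild type was Top2a, at a mean of 219 FPKM (the authors' values, scaled for length and depth), followed by Mki67 at 200.1, Kif11 at 163, Ccnb2 at 127.5 and Ube2c at 115 FPKM. Pttg1 was lowest at 10.02 FPKM, after Ccnb1 at 13.0 and Ttk at 14.6 FPKM. Cdc20 stood at 0.582 and 0.466 of the FPKM of Mki67 in wild type 13 and 15 and at 1.09 and 1.17 of it in knockout-labelled 22 and 24, so the order of these 2 genes was reversed. The ratio of Ube2c to Mki67 was 0.662 and 0.5 in wild type and 1.16 and 1.305 in the knockout-labelled libraries. The ratio of securin (Pttg1) to separase (Espl1) was 0.309 and 0.243 against 0.643 and 0.62, and that of Cdc25c to its substrate Cdk1 was 0.806 and 0.763 against 1.93 and 1.45. These pairs were picked with the values known, and their ratios carry no test.

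The 2 knockout-labelled libraries differed from each other in these genes in 1 main direction. Library 24 was above library 22 in 37 of the 42 (88.1%), where this held for 51.0% of all genes. The median log2 difference, 24 minus 22, was 0.20 over the 42 and 0.0079 over all genes. The widest gaps were in Birc5 (0.90), Spc24 (0.83), Ccnb2 (0.57) and Spc25 (0.51), and the exceptions were Cenpa (-0.33), Anln (-0.16), Hmmr, Cenpe and Prc1. The wild-type pair was closer, with a median of -0.03 for 15 minus 13 and a median absolute gap of 0.06 against 0.20 in the knockout-labelled pair. Over all genes the wild-type pair was closer too, with median absolute gaps of 0.13 and 0.26. Against the wild-type mean, the median of the 42 lay at -0.04 in library 22 and at 0.16 in library 24. Foxp3 stood at 31.9 CPM in library 22 and 75.8 CPM in library 24. Whether these differences are linked was not tested.

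The calls depended on which knockout-labelled libraries were kept. Without library 24, 10 of the 42 were higher and 10 lower (2122 higher and 2002 lower over all genes), with Aurka, Cenpe and Prc1 added to the higher and Birc5, Bub1, Bub1b, Ccna2, Cdk1, Espl1, Nuf2 and Spc24 to the lower genes. Without library 22, 10 were higher and 3 lower (994 and 899 over all genes), with Aurka, Ccnb1 and Cenpe higher, Bub1 and Spc24 lower, and Mki67 no longer past the threshold. Aurka, Cenpe, Bub1 and Spc24 thus passed without either library and not with both. In each of these fits the single library left is assumed to vary like the wild-type pair.

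Other genes of mitosis and the cell cycle, 121 in 6 lists, leaned lower. They include Ccne1, Ccne2, Cdk2 and Gmnn, which act around the start of DNA replication (log2 fold changes -0.41, -0.66, -0.43 and -0.27). Of the 121, 2 were higher and 13 lower, 12.4% in all against 10.1% of all genes, and 86 of 121 had log2 fold changes below 0 (median -0.19). Without wild type 13 the count was 0 higher and 2 lower (22 at an unadjusted p under 0.05), and without wild type 15 it was 0 and 0 (24 at an unadjusted p under 0.05). Without library 24 it was 9 higher and 55 lower, and without library 22 it was 9 and 17. Of 32 other kinetochore and centromere genes, 30 had log2 fold changes below 0 (median -0.40), against 6652 of 13279 over all genes (median -0.0013). In this list 6 genes fell (18.8%, against 4.59% of all genes) and 0 rose with edgeR. At an unadjusted p under 0.05 with edgeR were 18 of the 32, against 31.6% of all genes. Kntc1, a subunit of the complex that brings checkpoint proteins and dynein to kinetochores, fell from 276.5 and 310.1 CPM to 137 and 159 CPM (log2 fold change -0.99, SE 0.13, adjusted p = 0.0161). Mis12, which links the inner to the outer kinetochore, fell from 88.5 and 88.2 CPM to 46.1 and 53.0 CPM (log2 fold change -0.83, adjusted p = 0.0218). Cenpq, of the inner kinetochore, fell from 45.9 and 44.4 CPM to 25.8 and 29.2 CPM (adjusted p = 0.0306), and Cenpm, Ska1 and Mad1l1 were the other three.

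Of the condensin, cohesin and shugoshin list 12.5% passed the threshold, and of the anaphase-promoting complex list 5.88%. Of the other kinesin, centrosome and cytokinesis list 6.25% passed, and of the mitotic entry list 7.14%, against 10.1% of all genes. Of 16 condensin, cohesin and shugoshin genes, Ncapd3, a condensin subunit, and Smc1a, a cohesin subunit, fell, with log2 fold changes of -0.57 and -0.66. Of 17 anaphase-promoting complex genes, the catalytic subunit Anapc11 fell from 67.3 and 65.3 CPM to 34.1 and 45.3 CPM (adjusted p = 0.0413), while the list median was -0.03. Of 32 other kinesin, centrosome and cytokinesis genes, Troap rose and Kif15 fell (log2 fold changes 0.63 and -0.72). The list of mitotic entry holds 14 genes, some of which act earlier in the cell cycle. Among them Pkmyt1, a kinase that places inhibitory phosphates that Cdc25c removes, fell from 97.0 and 95.1 CPM to 51.3 and 67.5 CPM (log2 fold change -0.69, SE 0.16, adjusted p = 0.0475). The kinase Wee1, in the same list, overlapped between the groups (log2 fold change 0.13).

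The list of the MuvB complex and its partners, which switch G2 and M phase promoters on or off, gave 1 higher and 2 lower of 10, against 5.53% higher and 4.59% lower over all genes. Mybl2 (B-Myb), which joins MuvB to activate them, fell from 59.2 and 69.5 CPM to 29.1 and 37.8 CPM (log2 fold change -0.94, SE 0.17, adjusted p = 0.0268). Tfdp1, the dimer partner of E2F factors, fell from 177 and 184 CPM to 76.5 and 114 CPM (adjusted p = 0.0377), and Rbl2 (p130), which joins MuvB to repress them, rose from 232 and 223 CPM to 376 and 304.5 CPM (adjusted p = 0.0471). Foxm1 joins the same complex after B-Myb. The 15 genes past the threshold in these 6 lists had adjusted p values of 0.095 to 0.414 with wild type 15 left out. Without wild type 13, Kntc1 (0.0383) and Mybl2 (0.0497) passed and the other 13 did not.

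**Figure D4:**
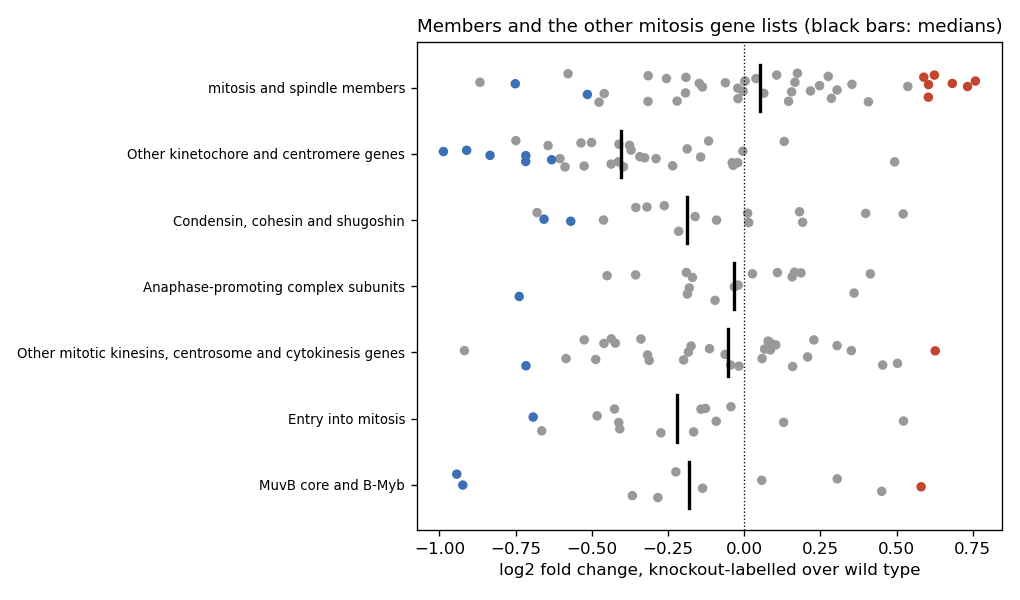
Log2 fold changes (horizontal axis) of the 42 genes (top row) and of 6 lists of other mitosis and cell cycle genes, 1 point per gene. Black bars are list medians. Red points passed the threshold as higher, blue as lower. The median is 0.05 for the 42 and -0.40 for the other kinetochore and centromere genes, and 7 of the 9 red points are among the 42.

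Promoters of mitosis genes are known for a pair of elements, CCAAT boxes, which NF-Y binds, and the cell cycle genes homology region, which MuvB contacts. RefSeq promoter sequences on GRCm38.p6 were matched for 34 of the 42 by symbol; Aurkb, Ccna2, Cdc25c, Foxm1, Incenp, Kif20a, Spc24 and Tpx2 were not matched. In the 250 bases before the start, CCAAT on either strand (CCAAT or ATTGG) was found in 26 of the 34 (76.5%), against 37.5% of the 27025 genes in the table. The homology region was searched as TTTGAA, which reads TTCAAA on the other strand, and as the palindrome TTCGAA. It was found in 13 of the 34 (38.2%), against 19.6%. Matches may share bases, as the last base of a CCAAT box can be the first of the homology region. In 8 of the 34, 2 CCAAT boxes on the same strand started 31 to 34 bases apart (23.5%), against 0.947% of all genes, a spacing that was chosen after the spacings were seen. These shares are descriptions, and a match is not a binding site.

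The 100 bases before the RefSeq start are printed for the called genes that were matched, and for Aurka, Ccnb1 and Hmmr, which show repeated CCAAT boxes. Capitals mark CCAAT boxes and the homology region on either strand, 5′ to 3′ on the strand of the gene.
Cdc20 (GRCm38.p6, chr4:118437344-118437443, minus strand): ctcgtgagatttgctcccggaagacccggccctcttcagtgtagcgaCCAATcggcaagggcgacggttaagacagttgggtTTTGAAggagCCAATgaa
Ube2c (GRCm38.p6, chr2:164769829-164769928, plus strand): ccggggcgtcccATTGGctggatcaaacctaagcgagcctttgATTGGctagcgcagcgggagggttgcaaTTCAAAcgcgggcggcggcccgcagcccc
Cenpa (GRCm38.p6, chr5:30666786-30666885, plus strand): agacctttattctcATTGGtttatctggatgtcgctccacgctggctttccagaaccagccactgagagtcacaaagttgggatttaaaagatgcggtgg
Cdc25b (GRCm38.p6, chr2:131186848-131186947, plus strand): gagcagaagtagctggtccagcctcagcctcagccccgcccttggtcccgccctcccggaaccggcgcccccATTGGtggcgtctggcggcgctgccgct
Pttg1 (GRCm38.p6, chr11:43425982-43426081, minus strand): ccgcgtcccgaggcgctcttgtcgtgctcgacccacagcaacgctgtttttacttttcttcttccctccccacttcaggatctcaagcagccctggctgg
Anln (GRCm38.p6, chr9:22389207-22389306, minus strand): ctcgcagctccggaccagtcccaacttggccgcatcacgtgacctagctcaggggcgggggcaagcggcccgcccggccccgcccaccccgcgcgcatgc
Mki67 (GRCm38.p6, chr7:135716380-135716479, minus strand): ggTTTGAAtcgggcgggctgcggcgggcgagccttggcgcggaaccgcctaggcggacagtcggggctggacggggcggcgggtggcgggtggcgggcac
Aurka (GRCm38.p6, chr2:172370571-172370670, minus strand): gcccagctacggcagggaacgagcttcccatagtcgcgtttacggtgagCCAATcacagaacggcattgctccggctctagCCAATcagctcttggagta
Ccnb1 (GRCm38.p6, chr13:100786487-100786586, minus strand): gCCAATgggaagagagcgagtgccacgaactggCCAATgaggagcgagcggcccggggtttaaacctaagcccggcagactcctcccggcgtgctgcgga
Hmmr (GRCm38.p6, chr11:40733438-40733537, minus strand): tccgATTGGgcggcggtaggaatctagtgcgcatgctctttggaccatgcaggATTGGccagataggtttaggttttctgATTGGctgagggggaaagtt

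In these windows Cdc20 and Ube2c, which rose, held 2 CCAAT boxes each and 1 homology region, at 18 and 29 bases before the start. Cenpa and Cdc25b held 1 CCAAT box, and the windows printed for Pttg1 and Anln, which also rose, held neither element. By the coordinates of the deposited table, the windows of Pttg1 and Cenpa lie wholly inside the gene and not before it. Those of Cdc20, Ube2c and Ccnb1 lie partly inside. Mki67, which fell, held TTTGAA at 98 bases before the start and no CCAAT box in this window. Aurka and Ccnb1 had boxes at 51 and 19 and at 99 and 67 bases, 32 bases apart in both genes, and Hmmr had 3 boxes. In the plot of fold changes these genes lie on both sides of 0. The 26 genes with a CCAAT box in the longer window had a median log2 fold change of 0.13 and the 8 without it 0.0023, and the 13 genes with the homology region had 0.04 and the 21 without it 0.11. No test was made of these medians.

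For 13 of the 42, annotated exons overlapped those of another gene, and whether strand was used in counting is not given in the sources used here. Among the called genes, the overlap was 22.8% of the exon bases of Ube2c (with Tnnc2), 12.7% of Cdc25c (Gm3550), 2.84% of Cdc20 (Elovl1), 2.47% of Cdc25b (Spef1) and 2.5% of Foxm1 (Tex52). The overlapping genes had mean counts of 1.5 for Tnnc2, 1.25 for Gm3550, 3.5 for Tex52, 49.8 for Spef1 and 669 for Elovl1, against 6070 for Ube2c, 1096 for Cdc25c, 3066 for Foxm1, 6263 for Cdc25b and 4565 for Cdc20. How reads in the overlaps were shared between the genes cannot be seen from the deposited counts. Exons of Kif20a overlapped those of Cdc23 over 29.3% of their length, and neither gene passed the threshold.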

How the data were processed

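RNA from 4 samples collected at day 3 was sequenced, 2 wild-type and 2 knockout-labelled by title and genotype. Bowtie2, RSEM and the build GRCm38.p6 (mm10) are named in the submitters' processing notes; their versions, the annotation release and the strand setting are not given in those sources. The deposited table held whole-number counts and the authors' FPKM for 34745 genes. The 42 members and all other lists were chosen with earlier results of these data known, as were the tests.

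The deposited counts went unchanged into edgeR 4.0.16 (R 4.3.3): filterByExpr (minimum count 10, minimum total 15), trimmed-mean scaling, glmQLFit and glmQLFTest, two-sided, no covariate, Benjamini-Hochberg adjustment over 13279 genes, threshold 0.05. Standard errors are the log2 fold change over the square root of F and are approximate. CPM used scaled library sizes; log2 CPM used a prior count of 2. Full statistics are given for members past the threshold and up to 3 others per role group by adjusted p, and up to 3 called genes per other list; further names were chosen after their values were seen. DESeq2 1.42.0, limma 3.58.1 and other scalings, filters and left-out libraries were alternatives. Gene coordinates are those of the deposited table; 30 of 42 members had identical coordinates in GENCODE M21. A planned search of protein motifs was not run. Figures used matplotlib 3.10.9.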

Additional observations from a re-analysis of the deposited data

How the results depend on the processing

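No paired analysis was possible because the groups share no replicate number. The member counts (7 higher, 2 lower) were 4 higher with upper-quartile scaling, 2 and 1 with limma on log2(FPKM + 1), 3 and 1 on log2(FPKM + 0.1), 5 lower both with DESeq2 and with a filter of 1 count in total, and 0 and 0 against a minimum fold of 1.5 (2 members at an unadjusted p under 0.05) or at an adjusted p below 0.01. Leaving out 1 library gave 0 to 10 higher and 0 to 10 lower, and a median log2 fold change of the members of -0.0452 to 0.1655 (the last without library 22). Over all genes (734 higher, 610 lower), the filter of 1 count in total gave 1261 and 1088, limma gave 445 higher on log2(FPKM + 1) and 457 on log2(FPKM + 0.1), the minimum fold 85 and 35, the adjusted p below 0.01 23 and 6, and leaving out 1 library 120 to 2122 higher and 70 to 2002 lower. Scaling by library totals gave 674 higher and 771 lower over all genes and 5 and 3 among the members. Against the minimum fold, 1448 of 13279 genes were at an unadjusted p under 0.05. The called genes kept their sign under every alternative; Cdc25c, Foxm1 and Anln missed the threshold only against the minimum fold, at 0.01 and without either wild-type library.

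Members near 0 changed sign. Ccnb2 was -0.0128 with library totals and -0.0466 and -0.0472 with limma on log2(FPKM + 1) and log2(FPKM + 0.1). Kif2c was -0.0258 with upper-quartile scaling, -0.0536 with library totals, and -0.0544 and -0.0567 with limma on FPKM. Mad2l1 was -0.0228, -0.0515, -0.0617 and -0.0643 under the same settings and -0.00585 with limma-voom. Cenpf was 0.00319 with DESeq2 size factors in edgeR and 0.0032 with DESeq2. Over the left-out libraries, the range was -0.838 to 0.075 for Birc5, -0.0204 to 0.301 for Bub3, -0.278 to 0.305 for Ccnb2, -0.24 to 0.104 for Cdca8, -0.185 to 0.164 for Cenpf, -0.124 to 0.0827 for Incenp, -0.0700 to 0.0772 for Kif2c, -0.172 to 0.165 for Mad2l1, -0.228 to 0.166 for Nusap1, -0.429 to 0.166 for Spc25 and -0.0151 to 0.146 for Tpx2. Further members that did not pass kept their sign, but with a library left out moved by over 1.5 times from the value with all libraries. These include Cdk1, Aurkb, Ndc80, Spc24 and Nuf2, given above. They also include Ccna2 (-0.404 to -0.0504), Bub1b (-0.295 to -0.0882), Plk1 (0.0304 to 0.185), Kif20a (0.0561 to 0.369) and Hmmr (0.102 to 0.212). The cause was not tested. The ranks of Top2a, Mki67, Kif11 and Pttg1 by level were the same with CPM per length. In the 100 bases before the start, 70.6% of members held CCAAT (21.6% of all genes) and 26.5% the homology region (7.18%).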
